A study of Homo sapiens with 24 samples.

Results

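HK-2 cells with a hairpin against YY1 (shYY1) were compared directly with HK-2 cells with a hairpin against KDM5C (shKDM5C), with 3 libraries in each group. These 6 libraries were taken by their labels from the 24 libraries of the series, of which 12 are HK-2. HK-2 is an immortalised line of human proximal tubule epithelium, the cell layer that takes up most of the filtered solutes in the kidney. The hairpins were carried by the lentiviral pLKO.1 vector and cells were kept under puromycin selection, so each group is a stable selected culture. The labels do not say which hairpin against a gene was used, whether a culture is 1 clone, or whether the replicates are separate cultures. The p-values therefore measure the spread between these samples, which may be technical. A control hairpin group (labelled shNC) and a double hairpin group (labelled Dsh), with 3 libraries each, are given beside the 2 knockdowns as values only. Total RNA was sequenced, and read pairs were counted per gene.

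KDM5C is a histone demethylase that removes methyl groups from lysine 4 of histone H3, a mark of active promoters and enhancers, and it lies on the X chromosome. YY1 is a zinc-finger transcription factor that binds promoters and enhancers, can bring DNA elements together, and activates or represses genes depending on its partners. Genes of ribosomes and mitochondria are known to carry YY1 motifs near their start sites. A direct contrast of the knockdowns asks where loss of one protein leaves cells different from loss of the other.

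The library shKDM5C replicate 1 stood apart, so each result is given for all 6 libraries and again for 5 libraries without it. Library totals were 15926561 to 18732758 counts. Genes of the mitochondrial genome took 11.8% of the counts in shKDM5C replicate 1, and 4.77% to 5.28% in the other 5 libraries. It had 22966 genes detected where the others had 24289 to 25011. Its log2 values correlated with those of replicates 2 and 3 at r = 0.949 across 17090 genes, while replicates 2 and 3 correlated at 0.988 and the shYY1 libraries at 0.986 to 0.988. Long genes were high in it: genes with a coding sequence of at least 4000 bases had a median of 0.390 above replicates 2 and 3 on the log2 scale, and those under 500 bases a median of -0.393. What set this library apart was not tested. The shKDM5C group without it rests on 2 libraries.

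The cells were checked against markers of the tissue named in the labels. Of 16 proximal tubule markers, 4 reached 1 CPM (counts relative to the library total, scaled with edgeR's TMM factors) in any of the 6 libraries. These were the transcription factors PAX8 and PAX2, the glutamyl transferase GGT1 and the glucose transporter SLC5A2. Defining transporters and receptors were at or near 0: SLC5A12 and SLC22A6 were at 0 in all 6 libraries, and LRP2 did not exceed 0.0552 CPM. Epithelial markers summed to 2852 to 3174 CPM in shKDM5C and 2367 to 2487 CPM in shYY1 cells, with all 7 markers reaching 1 CPM. Markers of other cell types were low. Endothelial markers (2 of 7 at 1 CPM, KDR at 0) summed to 3.48 to 6.23 CPM in shKDM5C and 6.33 to 7.72 CPM in shYY1 cells. Leukocyte markers (1 of 7, with PTPRC and CD3E at 0) summed to 4.10 to 7.17 and 3.27 to 4.22 CPM. Fibroblast markers (4 of 9, with COL1A2 and PDGFRA at 0) summed to 31.0 to 41.8 and 58.4 to 65.6 CPM. Distal tubule and collecting duct markers (5 of 9, with UMOD, AQP2, SLC12A1 and SCNN1G at 0) summed to 18.8 to 33.6 and 112.2 to 127.5 CPM, of which most was KRT7. In bulk RNA, fewer cells of a type and less RNA per cell cannot be told apart, and the part of these markers in the results was not tested.

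Levels of both hairpin targets came first. KDM5C (ENSG00000126012, chromosome X from 53191321 to 53225422, GRCh38) had 35.7, 68.5 and 67.8 CPM in shKDM5C replicates 1 to 3, and 260.7, 245.9 and 233.5 CPM in shYY1 replicates 1 to 3. The shNC mean was 194.4 ± 3.08 CPM (SD, n = 3) and the Dsh mean 69.2 CPM, so every shKDM5C library lay below the controls and every shYY1 library lay above them. KDM5C was higher in shYY1 than in shKDM5C cells by 2.09 on the log2 scale over 6 libraries (standard error 0.235, adjusted p = 0.00585, edgeR) and by 1.85 over 5 libraries (standard error 0.0637, adjusted p = 1.46e-12, edgeR). YY1 (ENSG00000100811, chromosome 14 from 100238298 to 100282792) had 262.3, 216.6 and 229.2 CPM in shKDM5C cells against 62.2, 68.7 and 63.5 CPM in shYY1 cells. The shNC mean of YY1 was 211.6 ± 6.67 CPM and the Dsh mean 75.4 CPM. YY1 was low in the shYY1 and Dsh groups alone, with a log2 difference of -1.89 (standard error 0.140, adjusted p = 0.00245, edgeR) over 6 and -1.79 (standard error 0.0608, adjusted p = 1.46e-12, edgeR) over 5 libraries. Each target was low in the groups whose label names its hairpin, and shKDM5C replicate 1 had the least KDM5C of all 6 libraries.

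The letters AANATGGCG, the core of the YY1 motif, were searched on both strands of RefSeq promoter windows that run from 250 bases before to 50 after each start site (GRCh38.p14). They stand in 3.19% of all 35116 windows, in a window of 7.66% of the genes that were tested over 5 libraries and have one, and in a window of 8 of the 95 named genes that have one. The window of KDM5C holds them, and that of SMC4, a condensin subunit named by the study, holds them at 2 places. The window of RPL24, a protein of the large ribosomal subunit, also holds them. These stretches are shown because they place the letters in a hairpin target and in members of 2 gene groups described here, and they were chosen after the values were seen. The capitals mark the motif letters or their reverse complement, and each stretch is read 5′ to 3′ in the direction of its gene.
KDM5C, chrX:53225181-53225209, minus strand: ctgacaaaccAAGATGGCGgcggcggcgc
SMC4, chr3:160399535-160399563, plus strand: gagcgacaatAAGATGGCGgtgataatcg
SMC4, chr3:160399636-160399664, plus strand: gtattttaggCGCCATTTTcgagtgaagg
RPL24, chr3:101686691-101686719, minus strand: tctttcttttCGCCATCTTttgtctttcc
The KDM5C match begins 8 bases after its start site and the RPL24 match 9 bases after it. Of the 16 genes named for the largest differences over 5 libraries, 11 have a window and 0 hold these letters, which says only that the letters are not in those windows. Windows were at hand for 68.9% of the genes tested, under 80%, so a comparison of called with uncalled genes would be void. A match is a description of sequence and not a measured binding site.

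Over all 6 libraries, 15914 genes were tested. At an adjusted p-value under 0.05, 290 genes (1.82%) were higher in shYY1 than in shKDM5C cells and 427 (2.68%) were lower. When the log2 fold change also had to reach 1.5 in size, 81 (0.509%) were higher and 152 (0.955%) lower. Over 5 libraries 16466 genes were tested, and 2740 (16.6%) were higher and 3065 (18.6%) lower, of which 182 (1.11%) and 258 (1.57%) passed the fold limit. Each of the 290 and 427 genes called over 6 libraries was also called over 5 in the same direction. Of the genes past the fold limit over 6 libraries, 65 of 81 higher and 136 of 152 lower genes also passed it over 5. The common dispersion, edgeR's estimate of the spread between replicates, was 0.0511 with the outlying library and 0.00455 without it. The median log2 fold change of all genes was -0.0031 and -0.0056, which TMM scaling holds near 0, so all differences are relative to the bulk of genes. Every list count below stands beside the shares of all genes higher and lower. These are 1.82% and 2.68% over 6 libraries, and 16.6% and 18.6% over 5.

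Where the control hairpin stood was read off for the genes past the fold limit over 5 libraries. For 149 of the 182 higher genes the shNC mean lay between the shKDM5C and shYY1 means, and for 116 of the 182 it was nearer to shYY1. For the 258 lower genes, shNC lay between the means for 218 and was nearer to shYY1 for 125. The Dsh mean was nearer to shYY1 for 123 of the higher and 159 of the lower genes. Over 6 libraries shNC was nearer to shYY1 for 61 of 81 higher and 88 of 152 lower genes. Among these higher genes the control was more often nearer to shYY1, while among the lower genes it was divided. The genes were chosen for a wide gap between shKDM5C and shYY1, so a further group is likely to fall inside it. No such share was taken over all genes tested, so these counts are a description only.

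The genes named for the largest rise were LINC03061, GJA1, SEMA7A, KRT7, DKK1, TMEM98, TSPAN5 and ENSG00000236453, beside KDM5C itself. These and the genes named for the largest fall were chosen among genes without overlap between the shKDM5C and shYY1 libraries compared. Their separation was thus set by the rule that named them. Members of the lists below were named by the smallest p-values over 5 libraries, which also favours groups that lie apart. GJA1, the gap junction protein connexin 43, had 4.10, 5.97 and 6.18 CPM in shKDM5C cells against 33.8, 31.0 and 25.3 CPM in shYY1 cells. The shNC mean was 31.0 CPM and the Dsh mean 6.92 CPM, so the shYY1 libraries stood with the controls and the shKDM5C libraries with the double knockdown. The log2 difference was 2.45 (standard error 0.207, adjusted p = 0.00278, edgeR) over 6 and 2.30 (standard error 0.145, adjusted p = 2.12e-09, edgeR) over 5 libraries.

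DKK1, a secreted inhibitor of Wnt signalling, had 6.28, 6.97 and 9.88 CPM in shKDM5C cells against 33.9, 36.8 and 38.0 CPM in shYY1 cells, beside 29.8 CPM in shNC and 12.5 CPM in Dsh. KRT7, a simple epithelial keratin, had 15.2, 29.9 and 28.1 CPM in shKDM5C cells against 122.1, 119.9 and 108.4 CPM in shYY1 cells, beside 120.3 CPM in shNC and 57.4 CPM in Dsh. Both genes were at or near the control level in shYY1 cells and below it in every shKDM5C library. Their log2 differences over 6 and 5 libraries were 2.22 and 2.10 for DKK1, and 2.25 and 2.00 for KRT7. SEMA7A, a membrane-anchored semaphorin, rose by 2.25 over 6 and 1.92 over 5 libraries, and its Dsh mean of 30.0 CPM lay above the shYY1 mean of 11.1 CPM.

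Other genes were above the control level in shYY1 cells. The long noncoding RNA LINC03061 (ENSG00000275216) had 4.92, 4.86 and 5.79 CPM in shKDM5C cells against 39.0, 39.0 and 34.6 CPM in shYY1 cells, where shNC had 20.1 CPM and Dsh 5.04 CPM. The shNC mean lay between the shKDM5C and shYY1 levels. Its log2 difference was 2.84 (adjusted p = 0.00143, edgeR) over 6 and 2.81 (adjusted p = 3.41e-11, edgeR) over 5 libraries. TSPAN5, a tetraspanin, had 2.32, 2.53 and 2.15 CPM in shKDM5C cells against 10.7, 9.82 and 10.6 CPM in shYY1 cells, around a shNC mean of 5.80 CPM. TMEM98, a membrane protein, rose by 2.15 and 1.95 and stood at 15.9 CPM in shYY1 and 9.99 CPM in shNC cells. The gene ENSG00000236453, for which no symbol was matched, rose by 1.85 over 6 and 2.31 over 5 libraries, and its Dsh mean of 57.3 CPM lay far above the 11.9 CPM of shYY1 cells.

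**Figure D1:**
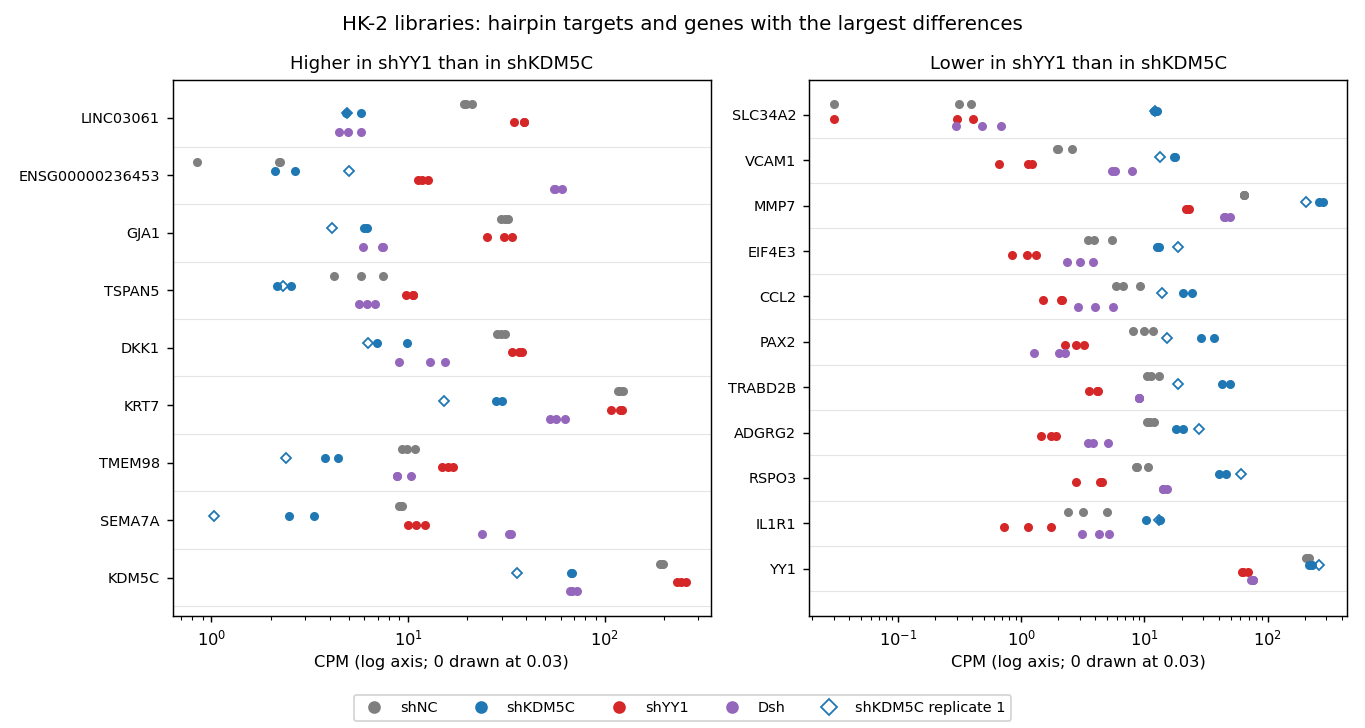
Level in each HK-2 library (CPM, log axis, a level of 0 drawn at 0.03) of the 2 hairpin targets and of the genes with the largest differences, with 1 point per library and shKDM5C replicate 1 as an open diamond. The rule that chose the genes with the largest differences required shKDM5C and shYY1 libraries without overlap, so their separation is not a result. The shNC points lie between them or beside shYY1 for most, as for GJA1 at 31.0 CPM in shNC and 30.0 CPM in shYY1.

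The genes named for the largest fall were SLC34A2, VCAM1, EIF4E3, ADGRG2, RSPO3, MMP7, CCL2, IL1R1, PAX2 and TRABD2B, which are of several kinds. SLC34A2, a sodium-dependent phosphate transporter, had 12.2, 12.6 and 12.03 CPM in shKDM5C cells against 0.299, 0 and 0.408 CPM in shYY1 cells, which were 5, 0 and 7 counts. The shNC mean was 0.235 CPM and the Dsh mean 0.489 CPM, so the gene stood high in the shKDM5C group alone. Its log2 difference was -5.67 (standard error 0.528, adjusted p = 0.00327, edgeR) over 6 and -5.66 (standard error 0.361, adjusted p = 2.34e-09, edgeR) over 5 libraries, and these values rest on few counts in shYY1 cells.

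VCAM1, an adhesion molecule for leukocytes, had 13.4, 17.8 and 17.4 CPM in shKDM5C cells against 1.14, 0.663 and 1.23 CPM in shYY1 cells, beside 2.18 CPM in shNC and 6.38 CPM in Dsh. MMP7, a secreted matrix protease of injured tubules, had 204.2, 281.4 and 261.6 CPM in shKDM5C cells against 21.9, 22.7 and 23.0 CPM in shYY1 cells. Controls had 64.4 CPM of MMP7 and Dsh cells 45.9 CPM, so shKDM5C libraries lay above and shYY1 libraries below the control level. The log2 difference of MMP7 was -3.48 (adjusted p = 0.000436, edgeR) over 6 and -3.60 (adjusted p = 1.06e-16, edgeR) over 5 libraries.

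CCL2, a chemokine that attracts monocytes, had 13.9, 20.6 and 24.4 CPM in shKDM5C cells against 2.09, 1.51 and 2.16 CPM in shYY1 cells, around a shNC mean of 7.24 CPM. RSPO3, a secreted enhancer of Wnt signalling, had 60.4, 46.3 and 40.3 CPM in shKDM5C cells against 4.49, 4.34 and 2.80 CPM in shYY1 cells, around 9.35 CPM in shNC. PAX2, a transcription factor of kidney development, had 15.2, 28.5 and 36.5 CPM in shKDM5C cells against 2.27, 3.25 and 2.80 CPM in shYY1 cells, around 9.86 CPM in shNC. All 3 genes were above the control mean in every shKDM5C library and below it in every shYY1 library. Their log2 differences over 5 libraries were -3.55 for CCL2, -3.49 for RSPO3 and -3.55 for PAX2.

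The remaining genes of this kind were also lower in shYY1 than in shKDM5C cells in both fits. EIF4E3, a cap-binding protein, had log2 differences of -3.77 over 6 and -3.56 over 5 libraries, ADGRG2, an adhesion receptor, -3.72 and -3.50, and IL1R1, the receptor of interleukin 1, -3.35 and -3.29. TRABD2B, a protease that inactivates Wnt proteins, had 18.8, 49.0 and 42.5 CPM in shKDM5C cells against 3.53, 4.22 and 4.14 CPM in shYY1 cells, a fall of 3.22 over 6 and 3.53 over 5 libraries. The spread within shKDM5C was set by replicate 1, which had the lowest TRABD2B and PAX2 of its group and the highest RSPO3, EIF4E3 and ADGRG2.

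Most genes of cytosolic ribosomal proteins were higher in shYY1 cells over 5 libraries, and fewer passed over 6. Of 79 members tested, 24 rose over 6 libraries, and none fell at an adjusted p or at an unadjusted p under 0.05. Over the same 6 libraries DESeq2 called 56 higher and voom with quality weights 76. Voom gave shKDM5C replicate 1 a weight of 0.0595, against 1.51 to 2.16 for the other libraries, so its count rests little on that library. Over 5 libraries 76 of 79 rose, where 16.6% of all genes did, and the 3 that did not pass were RPS10, RPS15A and RPL17. The median log2 fold change of the list was 0.582 over 6 and 0.596 over 5 libraries. The summed level was 26760, 30870 and 28460 CPM in shKDM5C replicates 1 to 3 and 44320, 39950 and 46630 CPM in shYY1 replicates 1 to 3. Controls had 30280 to 32390 CPM and Dsh cells 30380 to 33180 CPM, so the shYY1 group stood above the other 3 groups, which were near each other.

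RPL9, of the large subunit, had 155.9, 170.2 and 164.7 CPM in shKDM5C cells against 364.2, 304.0 and 372.1 CPM in shYY1 cells, a log2 difference of 1.07 over 6 and 1.04 over 5 libraries (standard error 0.0731, adjusted p = 6.94e-09, edgeR). RPS20, of the small subunit, had 473.4, 470.9 and 424.9 CPM in shKDM5C cells against 813.1, 734.6 and 875.0 CPM in shYY1 cells. RPL24 had 323.7, 277.4 and 247.0 CPM against 472.3, 439.4 and 531.1 CPM. None of these groups overlapped, which the choice of members by small p-values favours. The shYY1 replicate 2 was the lowest of its group for each gene. RPL7 rose over 5 libraries (0.70, adjusted p = 3.62e-08, edgeR) and had 0.45 (adjusted p = 0.209, edgeR) over 6. Ribosomal protein genes have many processed pseudogenes, so their counts are uncertain to the extent that reads were shared.

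Short genes moved with this result. A coding length was at hand for 79.1% of the genes tested, under 80%, so the length classes are void as a check over all genes and describe only the genes with a length, while all 79 ribosomal proteins have one. The median coding sequence of the ribosomal proteins is 468 bases, against 1446 for the genes tested. Over 5 libraries the median log2 fold change was 0.200 for genes under 500 coding bases, 0.070 from there to under 1000, -0.024 from there to under 2000, -0.075 from there to under 4000 and -0.162 for longer genes. Genes under 1000 coding bases other than ribosomal proteins had a median of 0.092. With a smooth trend with coding length taken out of each library, 75 of 79 ribosomal proteins still rose and 1 fell over 5 libraries, while 8 rose over 6. Leaving out any library other than shKDM5C replicate 1 from the 6 left 0 to 4 calls, and leaving out any 1 of the 5 left 74 to 77.

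**Figure D2:**
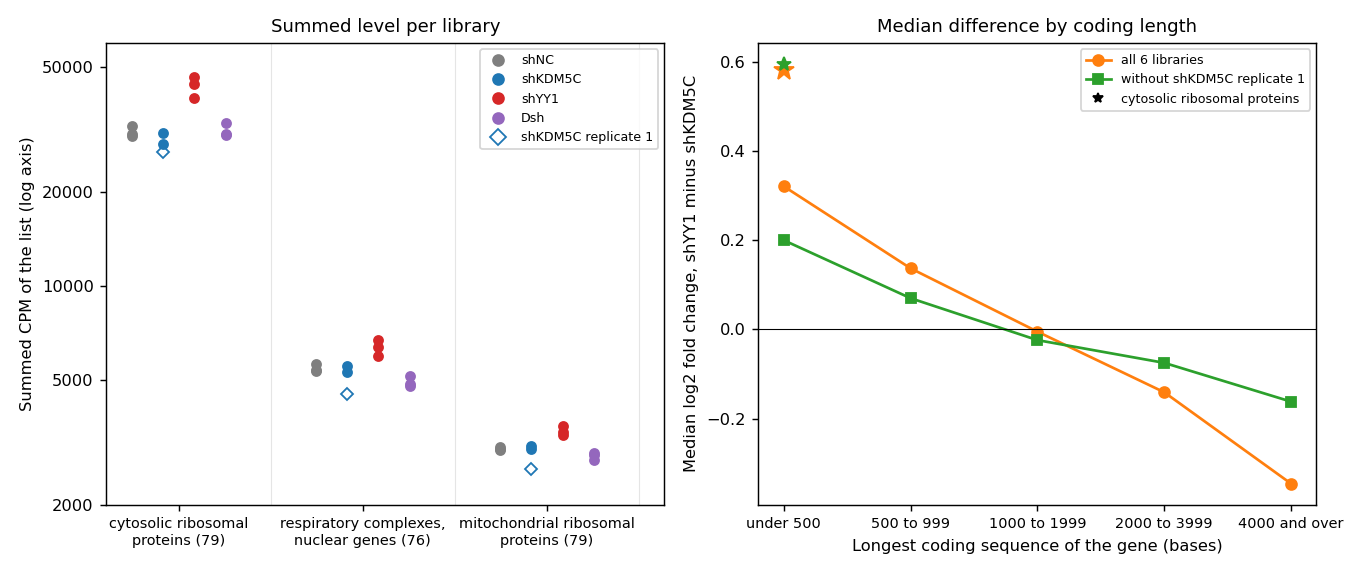
Left, summed level (CPM, log axis) of 3 gene lists in each HK-2 library, with shKDM5C replicate 1 as an open diamond. The 3 shYY1 points of the cytosolic ribosomal proteins lie at 39950 to 46630 CPM, above all other groups. Right, median log2 fold change (shYY1 minus shKDM5C) of genes by coding length, with and without that library, which falls from 0.200 to -0.162 without it, and stars for the ribosomal proteins at 0.582 and 0.596.

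Nuclear genes of the respiratory complexes, which make most subunits of the electron transport chain, showed a smaller difference in the same direction. Over 5 libraries 40 of 75 rose (53.3%) and 5 fell (6.67%), where 16.6% and 18.6% of all genes did, with a median of 0.265. Over 6 libraries 4 rose and 1 fell, with a median of 0.355. NDUFA1, a complex I subunit, had 28.5, 35.1 and 27.9 CPM in shKDM5C cells against 68.4, 52.0 and 78.8 CPM in shYY1 cells, and rose in both fits (1.10 and 1.07). COX6C, a complex IV subunit, rose by 0.99 and 0.81, and NDUFS5 by 0.59 and 0.60. CYC1, of complex III, rose over 5 libraries (0.46, adjusted p = 4.31e-06, edgeR) but had an adjusted p of 0.117 (edgeR) over 6. With the length trend taken out, 33 rose and 9 fell over 5 libraries. Mitochondrial ribosomal proteins had 32 higher (40.5%) and 5 lower (6.33%) of 79 over 5 libraries, with a median of 0.172. With the length trend taken out, 22 of these proteins were higher and 5 lower. Over 6 libraries edgeR called 0 of them at an adjusted p, where 19 were higher and 3 lower at an unadjusted p under 0.05 and DESeq2 called 5.

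The 13 protein genes of the mitochondrial genome did not follow the nuclear genes. Over 5 libraries 2 rose (15.4%) and 4 fell (30.8%), where 16.6% and 18.6% of all genes did, with a median of -0.019. MT-CYB, of complex III, was lower by 0.28 on the log2 scale. Its levels were 10957, 3545 and 3783 CPM in shKDM5C cells against 3108, 3006 and 2952 CPM in shYY1 cells, so replicate 1 stood apart from both groups. Over 6 libraries edgeR called 0 of the 13, with 3 lower at an unadjusted p under 0.05, and the median was -0.563.

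Inflammatory genes moved in both directions, with more lower than higher calls in shYY1 cells. Of 28 cytokine, chemokine and NF-kB genes tested, 4 fell over 6 libraries, namely VCAM1, CCL2, BIRC3 and IL1B, against 2.68% of all genes. Over 5 libraries 14 fell (50%) and 6 rose (21.4%), where 18.6% and 16.6% of all genes did, with a median of -0.280. BIRC3, an inhibitor of apoptosis induced by NF-kB, had 104.6, 75.96 and 82.2 CPM in shKDM5C cells against 19.8, 20.6 and 22.6 CPM in shYY1 cells, around 33.0 CPM in shNC. The difference was called in both fits (-2.08 and -1.92). CSF1, the macrophage growth factor, had 81.8, 153.9 and 150.8 CPM in shKDM5C cells against 75.1, 74.5 and 63.6 CPM in shYY1 cells, and fell over 5 libraries (-1.11, adjusted p = 2.07e-09, edgeR) but not over 6 (adjusted p = 0.0751). The members that rose over 5 libraries, named here after their values were seen, included IL6 (1.23), CCL20 (1.25) and CXCL8 (0.53).

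Of 16 genes of MHC class I presentation, 12 fell and 1 rose over 5 libraries, where 18.6% of all genes fell, and the median was -0.442. HLA-B, a class I heavy chain, had 42.8, 142.8 and 143.0 CPM in shKDM5C cells against 54.2, 55.7 and 65.4 CPM in shYY1 cells, where shNC had 128.4 CPM and Dsh 151.4 CPM. Replicate 1 lay below the shYY1 libraries and replicates 2 and 3 lay above them, and the call was made over 5 libraries (-1.30, adjusted p = 5.07e-10, edgeR) and not over 6 (-0.91, adjusted p = 0.199). TAP1, the peptide transporter, fell in both fits (-0.88 and -1.06). NLRC5, the activator of class I genes, was lower by 0.84 over 5 libraries and had an adjusted p of 0.0848 (edgeR) over 6. HLA genes resemble each other, and reads could be shared between them. With the length trend taken out, 11 fell and 3 rose over 5 libraries.

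Interferon-stimulated genes and DNA sensors had 13 lower (35.1%) and 2 higher (5.41%) of 37 over 5 libraries. Of all genes 18.6% were lower and 16.6% higher. Over 6 libraries 5 were lower. IFITM1, a membrane protein that restricts viral entry, fell in both fits (-1.67 and -1.94), as did IFI44L (-1.50 and -1.11). IFITM3 had 16.4 CPM in shKDM5C replicate 1, just above the shYY1 values of 13.0 to 16.2 CPM, and 53.6 and 52.6 CPM in replicates 2 and 3, so that it fell over 5 libraries only (-1.91, and over 6 an adjusted p of 0.0734, edgeR). IFITM genes are close paralogs and may share reads. Lysosomal, vesicle and Golgi genes had 17 lower (58.6%) and 3 higher (10.3%) of 29 over 5 libraries. The lower ones included the cathepsins CTSA (-0.58) and CTSD (-0.54). The list summed to 4528, 8262 and 8263 CPM in shKDM5C replicates 1 to 3 and 7838, 7857 and 7788 CPM in shYY1 replicates 1 to 3. Replicate 1 thus lay below the shYY1 libraries and replicates 2 and 3 above them. With the length trend taken out, CTSA had -0.20 and CTSD -0.10 over 6 libraries (adjusted p = 0.715 and 0.893, edgeR). Over 6 libraries 2 were lower, among them ATP6V1A, a subunit of the vacuolar proton pump (-0.56).

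Epithelial genes moved in both directions. Of 10 keratins tested over 5 libraries, 5 rose (50%) and 2 fell (20%), where 16.6% and 18.6% of all genes did. Of 9 tested over 6 libraries 3 rose and 1 fell. KRT19, a keratin of simple and ductal epithelia, had 15.6, 27.3 and 24.9 CPM in shKDM5C cells against 58.3, 54.8 and 60.8 CPM in shYY1 cells, a difference of 1.34 over 6 and 1.14 over 5 libraries. KRT80 rose by 0.99 and 0.91. KRT18, the main type I keratin of these cells, had 492.1, 594.9 and 597.6 CPM in shKDM5C cells against 331.4, 364.5 and 324.2 CPM in shYY1 cells, and fell by 0.74 over 6 and 0.82 over 5 libraries. KRT8, the partner of KRT18, fell over 5 libraries (-0.60) and had an adjusted p of 0.0576 (edgeR) over 6. Simple keratins did not move together, KRT7 and KRT19 being higher and KRT8 and KRT18 lower in shYY1 cells. KRT8 and KRT18 have processed pseudogenes that can share reads.

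Of 34 genes of epithelial junctions and the epithelial-mesenchymal transition, 10 rose and 10 fell over 5 libraries, 29.4% each way. Of all genes 16.6% rose and 18.6% fell. Over 6 libraries 3 of the 34 rose and 3 fell. CLDN2, a pore-forming claudin of the proximal tubule, had 135.4, 189.8 and 193.7 CPM in shKDM5C cells against 49.4, 47.9 and 40.1 CPM in shYY1 cells, around 92.9 CPM in shNC. CLDN4, a barrier claudin, had 5.87, 19.0 and 21.1 CPM in shKDM5C cells against 53.6, 48.0 and 54.5 CPM in shYY1 cells, and was called over 5 libraries (1.37) but not over 6 (1.75, adjusted p = 0.0522, edgeR). The claudins thus moved in opposite directions, CLDN2 falling by 1.93 over 6 and 2.07 over 5 libraries. CDH1, or E-cadherin, was low in all libraries, with 2.94, 4.01 and 4.69 CPM in shKDM5C cells against 0.598, 0.362 and 1.05 CPM in shYY1 cells, and fell in both fits (-2.53 and -2.69). SNAI2, a repressor of epithelial genes that is named here after its values were seen, had 0.0683, 0.528 and 0.607 CPM in shKDM5C cells against 3.41, 3.86 and 4.84 CPM in shYY1 cells. FN1, a member of the same list described with the matrix genes below, was lower in shYY1 cells in both fits. SNAI2 therefore does not stand for the list. CDH16, the kidney-specific cadherin, fell over 5 libraries (-1.15) and had an adjusted p of 0.0828 (edgeR) over 6.

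Among kidney and other cell type markers, 2 of 5 proximal tubule markers tested over 5 libraries fell, GGT1 (-1.20) and PAX2. Of these 5, 3 had a positive sign and 1 was higher at an unadjusted p under 0.05. PAX8, named after its values were seen, had 0.0043 (adjusted p = 0.967, edgeR). With the length trend taken out, the receptor CUBN, which did not reach 1 CPM, was higher over 5 libraries (2.13, adjusted p = 0.0357, edgeR). Over 6 libraries PAX2 fell. Of 5 distal tubule markers 2 rose in both fits, KRT7 and the calcium-binding protein CALB1, the latter from at most 0.205 CPM in shKDM5C to at most 1.75 CPM in shYY1 cells. Of 4 fibroblast markers tested, LUM, a matrix proteoglycan, rose in both fits (1.17 and 1.20). PDGFRB fell over 5 libraries by edgeR (-1.52), where DESeq2 called 0 fibroblast markers lower. Of the 2 endothelial markers PECAM1 fell over 5 libraries, from at most 1.27 CPM, and the leukocyte marker CD14 fell over 5 libraries (-0.82). Over 6 libraries edgeR called 0 of the endothelial and leukocyte markers, where DESeq2 called 0 as well and 1 endothelial marker was higher, 1 endothelial and 1 leukocyte marker lower, at an unadjusted p under 0.05. Of the 7 epithelial markers, 2 rose and 2 fell over 6 libraries, and 4 rose and 3 fell over 5.

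Matrix genes were also divided. Of 34 collagens, laminins and other basement membrane genes, 3 rose and 4 fell over 6 libraries. Over 5 libraries 9 rose (26.5%) and 14 fell (41.2%), where 16.6% and 18.6% of all genes did. FN1, fibronectin, had 12743, 12157 and 12326 CPM in shKDM5C cells against 6513, 6045 and 6269 CPM in shYY1 cells, where shNC had 8898 CPM and Dsh 16213 CPM. The shKDM5C libraries lay above the control mean and the shYY1 libraries below it, and FN1 fell by 1.00 over 6 and 0.97 over 5 libraries. COL8A1, a short-chain collagen, had 41.2, 38.0 and 39.0 CPM in shKDM5C cells against 78.3, 79.4 and 86.3 CPM in shYY1 cells, a rise of 1.03 and 1.07. LAMA1, a laminin of developing basement membranes, fell by 0.97 and 0.80. FBN1, fibrillin, rose over 5 libraries (1.12) with an adjusted p of 0.153 (edgeR) over 6. Of 18 matrix metalloproteinases and inhibitors tested over 5 libraries, 9 rose (50%) and 5 fell (27.8%), and over 6 libraries 2 rose and 1 fell of 16. MMP7 was the lower member over 6 libraries. MMP16, a membrane-bound protease, rose over 5 libraries (1.20) and had an adjusted p of 0.0901 (edgeR) over 6.

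Genes of the EGF and MET receptors and their ligands had more higher than lower calls over 5 libraries. Of 18 genes of the EGF and MET receptor axis, 11 rose (61.1%) and 3 fell (16.7%) over 5 libraries, with a median of 0.310. The shares of all genes were 16.6% and 18.6%. AREG alone was called over 6 libraries. AREG, amphiregulin, had 7.58, 13.7 and 14.6 CPM in shKDM5C cells against 45.2, 44.7 and 57.1 CPM in shYY1 cells, beside 44.2 CPM in shNC and 36.8 CPM in Dsh. The shYY1 libraries stood with the controls and the shKDM5C libraries below them, a difference of 2.02 over 6 (adjusted p = 0.00800, edgeR) and 1.79 over 5 libraries (adjusted p = 3.60e-09, edgeR). TGFA rose by 0.87, HBEGF by 0.65 and the receptor MET by 0.43 over 5 libraries, with adjusted p-values of 0.0636, 0.0576 and 0.882 (edgeR) over 6.

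Of 29 AP-1 and immediate early genes, 3 rose and 1 fell over 6 libraries. Over 5 libraries 5 rose (17.2%) and 9 fell (31%), where 16.6% and 18.6% of all genes did. FOSL1, an AP-1 subunit, had 9.49, 22.5 and 23.1 CPM in shKDM5C cells against 55.3, 58.0 and 64.9 CPM in shYY1 cells, above the 36.5 CPM of shNC, and rose by 1.68 and 1.37. DUSP1, a phosphatase of MAP kinases, rose by 0.80 and 0.65, and DUSP6, a phosphatase of ERK, fell by 0.93 and 1.00. EGR1 fell over 5 libraries (-1.47) and had an adjusted p of 0.0506 (edgeR) over 6. Of 36 targets and members of the TGF-beta and YAP pathways, 3 rose and 2 fell over 6 libraries, and 11 rose (30.6%) and 13 fell (36.1%) over 5. NT5E, the ectonucleotidase CD73, had 31.2, 20.01 and 23.8 CPM in shKDM5C cells against 72.9, 71.7 and 67.9 CPM in shYY1 cells. F3, tissue factor, rose by 1.54 and 1.43, and BAMBI, a decoy receptor of TGF-beta, fell by 1.18 and 1.41. AXL rose over 5 libraries (0.76) and had an adjusted p of 0.145 (edgeR) over 6.

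Metabolic and stress lists are read against the 16.6% of all genes that rose and 18.6% that fell over 5 libraries. Of 33 genes of the hypoxia response and glycolysis tested over 5 libraries, 16 rose and 3 fell, with a median of 0.135, and over 6 libraries 2 rose and 2 fell of 32. NDRG1 and the mitophagy receptor BNIP3 rose in both fits (0.97 and 0.84 for NDRG1, 0.93 and 0.90 for BNIP3). The glucose transporter SLC2A3 had 138.9, 169.6 and 176.8 CPM in shKDM5C cells against 67.8, 69.7 and 63.2 CPM in shYY1 cells, a fall of 1.29 and 1.38. PGK1, a glycolytic enzyme, rose over 5 libraries (0.52) and had an adjusted p of 0.0547 (edgeR) over 6. The targets of hypoxia signalling were thus not of 1 direction.

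Of 31 genes of the ATF4 and unfolded protein response, 9 rose and 7 fell over 5 libraries, among them DDIT4 (0.65), SLC7A5 (0.53) and ATF4 (0.42) higher and CEBPB (-0.54) lower. Over 6 libraries edgeR called 0 of them, with 7 higher and 2 lower at an unadjusted p under 0.05 and 4 called by DESeq2. Of 30 genes of glycogen metabolism and the pentose phosphate pathway, 7 rose and 5 fell over 5 libraries, with PPP1R3B, which targets a phosphatase to glycogen, higher (0.78) and PHKB, a subunit of phosphorylase kinase, lower (-0.47). Over 6 libraries 0 passed, with 4 higher and 3 lower at an unadjusted p under 0.05 and 3 called by DESeq2. Of 28 NRF2, glutathione and ferroptosis genes, 7 rose and 8 fell over 5 libraries, with TXN (0.68) higher and NQO1 (-0.55) lower, and 0 passed over 6, where 5 were higher and 6 lower at an unadjusted p under 0.05 and DESeq2 called 4. Of 25 cholesterol synthesis genes, 3 rose (12%) and 4 fell (16%) over 5 libraries, shares below those of all genes, with the sterol carrier STARD4 (-0.75) lower and the synthesis enzymes EBP (0.45) and FDFT1 (0.38) higher. STARD4 was the only cholesterol gene called over 6 libraries (-0.89).

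Of 43 S phase genes, 8 rose (18.6%) and 7 fell (16.3%) over 5 libraries, near the 16.6% and 18.6% of all genes. RRM2, a subunit of ribonucleotide reductase, fell in both fits (-0.86 and -0.74). RRM2 had 370.9, 309.5 and 297.5 CPM in shKDM5C cells against 174.0, 182.0 and 192.3 CPM in shYY1 cells, where shNC had 205.9 CPM, so the shKDM5C libraries lay above the other groups. Of 54 G2/M genes, 5 rose (9.26%) and 24 fell (44.4%) over 5 libraries, with a median of -0.128. MKI67, a marker of cycling cells with a long coding sequence, had 2185, 928.8 and 907.4 CPM in shKDM5C cells against 767.1, 711.2 and 694.8 CPM in shYY1 cells. With the length trend taken out, 8 G2/M genes rose and 15 fell over 5 libraries, and MKI67 was lower by 0.18 instead of 0.35. Over 6 libraries edgeR called 0 G2/M genes, with 1 higher and 12 lower at an unadjusted p under 0.05, and DESeq2 called 0.

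The study named 6 genes, which it chose on samples of this series. It named them as lower in the double knockdown of ACHN cells. The values here come from another comparison in another cell line, so they are not a check of that result. JAM3, a junctional adhesion molecule, had 42.0, 39.5 and 39.5 CPM in shKDM5C cells against 28.5, 26.1 and 26.8 CPM in shYY1 cells, beside 42.2 CPM in shNC and 16.3 CPM in Dsh. The groups did not overlap, and the shKDM5C libraries stood with the controls. JAM3 fell over 5 libraries (-0.55, adjusted p = 0.000101, edgeR) and had an adjusted p of 0.05004 (edgeR), just over the threshold, over 6. KNTC1 (-0.29), SMC4 (-0.24), LMNB1 (-0.19) and FOXM1 (-0.23) fell over 5 libraries, and SMC2 had -0.12 (adjusted p = 0.142, edgeR). With the length trend taken out, JAM3 remained called (-0.55) and the adjusted p-values of KNTC1, SMC4, LMNB1 and FOXM1 were 0.0632, 0.133, 0.109 and 0.0596 (edgeR). None of the 6 passed over 6 libraries with edgeR, where 3 were lower at an unadjusted p under 0.05 and DESeq2 called 1. Of 40 genes of the apoptosis machinery, 9 rose (22.5%) and 11 fell (27.5%) over 5 libraries, where 16.6% and 18.6% of all genes did. Over 6 libraries BIRC3 and BIRC2 (-0.72) fell. Among them BCL2L1, which protects cells from apoptosis, and PMAIP1, which promotes it, were both higher over 5 libraries (0.53 and 0.61).

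Among regulators of histone H3 lysine 4 methylation, KDM5C was the only one of 21 called over 6 libraries. Over 5 libraries 6 rose (28.6%), the target KDM5C among them, and 3 fell (14.3%). The methyltransferases KMT2C (-0.49) and KMT2D (-0.37) were lower and their partner ASH2L (0.35) higher. With the length trend taken out, these differences over 5 libraries were -0.305 for KMT2C, -0.181 for KMT2D and 0.444 for ASH2L. The paralogs KDM5A and KDM5B had differences of -0.05 and 0.03 over 5 libraries and did not pass. Of 43 YY1 partners, INO80 and Polycomb genes, 3 fell over 6 libraries, which were YY1 itself and SFMBT1 (-0.86) and SFMBT2 (-2.24), both partners of YY1 in a Polycomb complex. Over 5 libraries 6 rose (14%) and 9 fell (20.9%), near the shares of all genes, with PCGF5 (0.68) higher and PHC3 (-0.51) lower. SFMBT1 and SFMBT2 are named after their values were seen.

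Of 24 REST and neuronal genes tested over 5 libraries, 2 rose (8.33%) and 10 fell (41.7%), where 16.6% and 18.6% of all genes did. Of 23 tested over 6 libraries, 1 rose and 4 fell. UNC13A, a factor of vesicle release, had 43.9, 35.5 and 35.1 CPM in shKDM5C cells against 12.7, 11.03 and 10.6 CPM in shYY1 cells, beside 31.3 CPM in shNC and 32.3 CPM in Dsh. The log2 difference of UNC13A was -1.76 over 6 and -1.63 over 5 libraries. MAPK8IP2, a scaffold of JNK signalling, had -1.72 and -2.06. Of 32 HOX genes, 3 rose (9.38%) and 5 fell (15.6%) over 5 libraries, below the shares of all genes, and HOXC13 rose over 6 (1.69). Germline genes were mostly silent, with 9 of 44 tested. Over 5 libraries MEIOB rose (0.54), 11.1% of those tested, and SMC1B (-0.56) and STAG3 (-0.25) fell, 22.2% of them. Over 6 libraries edgeR called 0 germline genes, with 1 higher and 1 lower at an unadjusted p under 0.05 and 1 called by DESeq2.

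**Figure D3:**
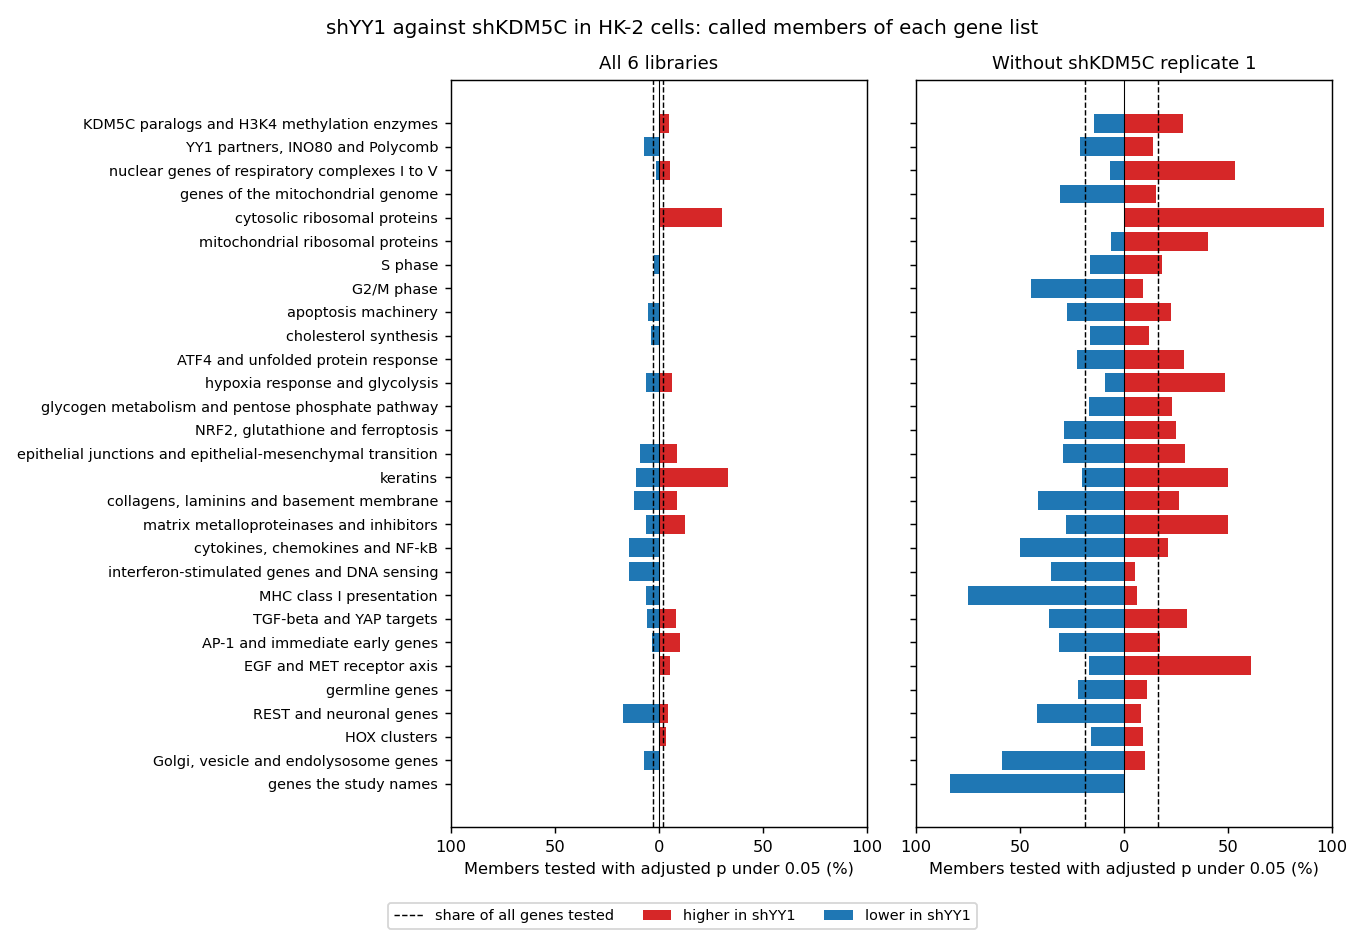
Share of tested members (%) of each gene list with an adjusted p under 0.05, higher in shYY1 to the right and lower to the left, over all 6 libraries and without shKDM5C replicate 1. Dashed lines mark the shares of all genes tested, 1.82% and 2.68% with that library and 16.6% and 18.6% without it. The cytosolic ribosomal proteins reach farthest to the right in the second panel, with 76 of 79 members.

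The same contrast was taken in ACHN cells, the renal cancer line of the series, whose libraries are separate from those of HK-2. In ACHN cells 4850 of 16090 genes (30.1%) were higher and 4911 (30.5%) lower in shYY1 than in shKDM5C cells. Over the 14691 genes measured in each line, genes not being replicates of a condition, the fold changes of HK-2 without the outlying library and of ACHN had a Pearson correlation of 0.010 and a Spearman correlation of 0.026. With shKDM5C replicate 1 these were 0.031 and 0.032 across 14448 genes. Of the 182 higher genes past the fold limit over 5 libraries, 122 were tested in ACHN, where 43 (35.2%) were called in the same and 31 (25.4%) in the opposite direction. Of the 258 lower genes 154 were tested in ACHN, where 34 (22.1%) were called lower and 74 (48.1%) higher. These shares stand beside 30.1% and 30.5% of all genes called higher and lower in ACHN, and their difference from them was not tested.

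The difference between the lines was tested gene by gene. With all 12 libraries 1923 of 17827 genes (10.8%) had a more positive and 2094 (11.7%) a more negative difference in HK-2 than in ACHN, and without HK-2 shKDM5C replicate 1 these were 3951 (21.4%) and 3818 (20.7%) of 18457. Of the 79 cytosolic ribosomal proteins, 71 had a more positive difference in HK-2 and 0 a more negative one by edgeR without that library, and 54 with it. In ACHN cells themselves 21 of them were higher and 28 lower, with a median of -0.022. RPL9 was 1.04 in HK-2 and -0.15 in ACHN, and the lines differed (adjusted p = 1.23e-10, edgeR). The same order was seen for nuclear respiratory genes, of which 42 were more positive and 2 more negative in HK-2 (24 and 1 with replicate 1), and which in ACHN had 18 higher and 27 lower.

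Single genes differed in size or in sign. SLC34A2 was lower by 5.66 in HK-2 and higher by 1.61 in ACHN shYY1 cells, where its means were 270.6 CPM in shKDM5C cells against 819.1 CPM in shYY1 cells. PAX2 was at -3.55 in HK-2 and 3.21 in ACHN, CDH1 at -2.69 and 2.91, and CCL2 at -3.55 and 1.14, all with adjusted p-values for the difference of at most 7.38e-14 (edgeR). GJA1 was at 2.30 in HK-2 and -0.36 in ACHN. TRABD2B was lower in both lines (-3.53 and -3.87) and CLDN2 too (-2.07 and -2.09), with adjusted p-values for the difference of 0.576 and 0.960 (edgeR). The transcript LINC03061 rose in both lines, by 2.81 and 4.10. Not all genes could be set side by side: VCAM1, MMP7, RSPO3 and ADGRG2 were too low in ACHN to be tested there.

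**Figure D4:**
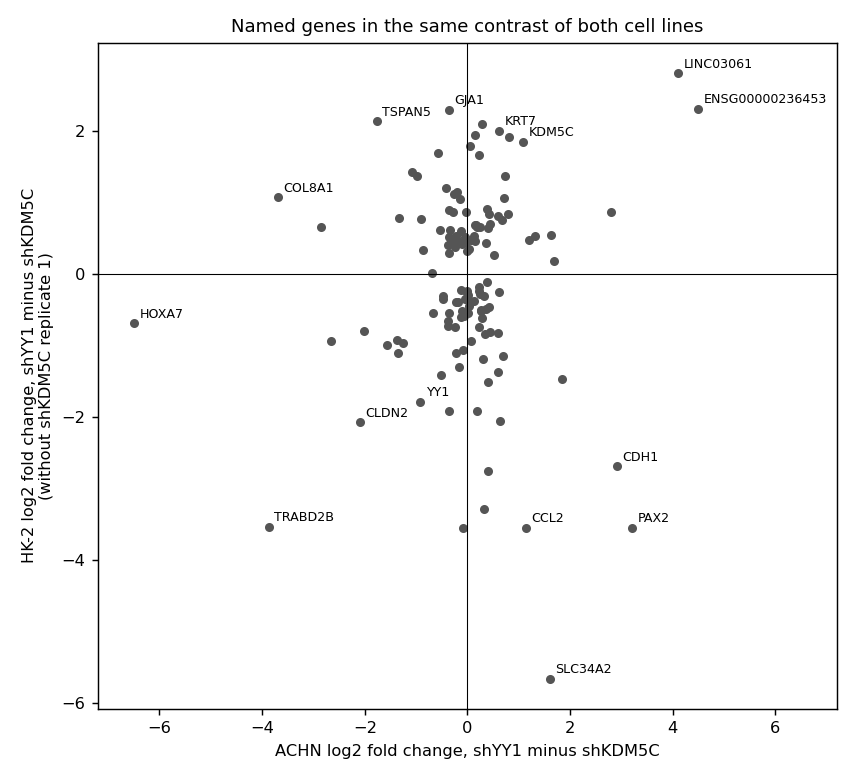
Log2 fold change (shYY1 minus shKDM5C) of the 132 named genes tested in both lines, in ACHN on the horizontal and in HK-2 without shKDM5C replicate 1 on the vertical axis, with 1 point per gene. Points lie in all 4 quadrants, with SLC34A2 (1.61 in ACHN, -5.66 in HK-2) and PAX2 (3.21 and -3.55) of opposite sign and TRABD2B (-3.87 and -3.53) of the same sign.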

How the data were processed

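RNA of HK-2 cells was measured in 3 shYY1 and 3 shKDM5C libraries, with 6 ACHN libraries and the other 6 HK-2 libraries used beside them. Read alignment by the authors used HISAT2 2.0.5 and hg38, and featureCounts assigned the pairs to genes. The processing notes give version 1.5.0-p3 and the file headers 2.0.1, without a strand option, so overlapping and antisense genes cannot be separated. The values deposited by the authors are raw counts of 60675 genes of Ensembl on GRCh38. Symbols were matched for 56558 genes, and the other 4117 hold 0.243% of the counts.

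Counts were scaled by TMM, filtered with filterByExpr and tested with edgeR 4.0.16 (quasi-likelihood F test, R 4.3.3, shYY1 minus shKDM5C) and p-values were adjusted by Benjamini-Hochberg across every gene in the fit. The threshold was an adjusted p of 0.05, and 1.5 on the log2 scale for the fold limit. The cell lines were compared by an interaction term. Standard errors came from the F statistic. Steps were tested on simulated counts. Alternatives were DESeq2 1.42.0, limma 3.58.1 voom with quality weights, a robust prior, other scalings and filters, all HK-2 libraries, the replicate number as a block and each library left out. A fit with a spline trend (5 degrees of freedom) with coding length (GENCODE) taken out was chosen after seeing the data.

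The genes, lists and rules were chosen with earlier results of these data known. Named are the targets, the 6 genes of the study, for each fit the 8 genes with the strongest rise and the 8 with the strongest fall (those past the adjusted p, fold limit, at least 10 CPM in the higher group, no overlap between groups), and up to 4 members of each list by p-value over 5 libraries. The chi-square of counts per degree of freedom was 3.2 for the closest pair of libraries, so no library was a copy of another. With 3 libraries per group an exact permutation test of a single gene cannot go below 0.1, so p-values come from models across genes. Some members of the lists are not reported here by name.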

Additional observations from a re-analysis of the deposited data

Results flagged for a closer look

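The difference between shYY1 and shKDM5C was not the same in HK-2 and ACHN cells for many genes, by edgeR's test of the interaction. With all 12 libraries 4017 genes differed between the lines, and without HK-2 shKDM5C replicate 1 7769 did. Without that library the log2 fold change of KDM5C was 0.77 more positive in HK-2 than in ACHN, and that of YY1 more negative by -0.86, so both hairpin contrasts were larger in HK-2. LINC03061 (-1.28) and ENSG00000236453 (-2.18) rose in both lines and more in ACHN. GJA1 (2.67) was higher in HK-2 shYY1 and lower in ACHN shYY1 cells, and SLC34A2 (-7.26) was lower in HK-2 and higher in ACHN. Whether anything other than the cell line sets the 2 sets of libraries apart was not tested.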

How the results depend on the processing

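The counts of genes called over all 6 libraries depended on the tool and on single libraries. Of 290 higher and 427 lower genes, DESeq2 gave 923 and 1165, limma voom with quality weights 3056 and 3090, no filter 756 and 815, and a fit on all 12 HK-2 libraries 1670 and 2075. With the fold limit, 81 higher and 152 lower genes became 139 higher with DESeq2, 188 and 250 with voom, 150 higher with no filter, and 184 and 262 with all 12 libraries. Leaving out 1 library gave 13 to 2740 higher and 44 to 3065 lower genes, and 9 to 182 and 38 to 258 with the fold limit. The highest of these leave-out counts came without shKDM5C replicate 1. Voom gave this library a weight of 0.0595, against 1.51 to 2.16 for the others, so its counts are close to a fit without it. Without shKDM5C replicate 2 or 3 the counts were 82 and 162 or 66 and 158, and without shYY1 replicate 1, 2 or 3 they were 14 and 44, 19 and 51, or 13 and 51.

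Over 5 libraries, leaving out a further library gave 1779 to 2797 higher and 2036 to 2942 lower genes, with 160 to 229 and 211 to 276 past the fold limit. The lowest counts, 1779 and 2036, came without shKDM5C replicate 3, which leaves 1 shKDM5C library assumed to vary like the shYY1 group. For the difference between the lines, leaving out 1 library gave 1332 to 3951 and 1466 to 3818.

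Samples of the same replicate number did not deviate together (correlations of -0.070, -0.061 and -0.007), so the numbers were not taken as pairs. With the replicate block, 29 higher and 86 lower genes were called over 6 libraries, 21 and 68 with the fold limit, and 1205 and 1341 for the difference between the lines.

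Among the genes named by the rules, no called gene changed sign under the alternatives run, but some values that did not pass did. The signs of the other called genes were not compared. With the coding length trend taken out, SMC2 over 5 libraries went from -0.12 to 0.01, and over 6 libraries PCGF5 went from 0.15 to -0.09 and KMT2D from -0.39 to 0.00. That fit tested only the 13021 genes with a coding length over 5 libraries, where the main fit tested 16466. It called 3106 higher and 2530 lower genes, where the main fit called 2740 and 3065. The larger side turned, but the set of genes changed along with the trend. The fit with the trend taken out ended the calls of RPS20, RPL24, NDUFA1, NDUFS5, COX6C and TAP1 over 6 libraries. Over 6 libraries, 1768 of the values of named genes under alternatives kept their side of the threshold, 298 passed it and 233 lost it. Over 5 libraries these were 2000, 6 and 18, the losses including KNTC1, SMC4, LMNB1, FOXM1 and STAG3 with the coding length trend taken out. Low genes such as SLC34A2 in shYY1 cells rest on few counts.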
